A study of Mus musculus with 6 samples.

Results

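The 37 genes described here encode the cyclins, cyclin-dependent kinases, origin licensing and helicase factors, replication fork and nucleotide supply enzymes and mitotic regulators of the cell division cycle. They were picked by name from a list of cell cycle and replication genes, with earlier results of these data known, and all 37 were found among the 34755 genes represented. Each gene was read from its probe with the highest mean signal, out of 51 probes for the 37 genes. The levels are log2 intensities after subtraction of the array's 75th percentile, called scaled log2 signals below, so 0 is the 75th percentile of that array. Levels of different genes come from different probes and are not set against each other.

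The series compared RNA bound to AGO2, the Argonaute protein that carries microRNAs, with total RNA in mouse bone marrow-derived macrophages that had or lacked Dicer, the enzyme that cuts microRNA precursors. Per the labels, the cells called WT came from LysM-Cre/Dicer wt/wt/Apoe-/- mice and the cells called KO from LysM-Cre/Dicer flox/flox/Apoe-/- mice, so every sample carried LysM-Cre and lacked Apoe. LysM-Cre places Cre recombinase in the Lyz2 locus, which is active in myeloid cells, so Dicer is deleted in those cells as they mature. The mice were 6 to 8 weeks old and male per the labels, and their marrow cells were grown for 7 days with L929-conditioned medium. For each genotype there was 1 array of input RNA, taken from the cell lysate before precipitation, 1 array of RNA precipitated for 7 hours with a mouse monoclonal AGO2 antibody (AGO2-RIP) and 1 array of RNA precipitated with control IgG (IgG-RIP). With 1 array per group, a difference between 2 arrays has no replicate error, and a gene is counted as higher or lower where the difference reached 2-fold (1 on the log2 scale), which is a size and not a test. The sources used here do not say whether fractions of a genotype came from the same cells.

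Sex-linked transcripts did not follow the label. Xist, the RNA of the inactive X chromosome, exceeded background on all 3 WT arrays and on 0 of 3 KO arrays, and the Y-linked Ddx3y and Eif2s3y did so on all 3 KO arrays and on 0 of 3 WT arrays. Sex therefore went with genotype in every comparison of KO with WT below. KO arrays lay on slide row 1 and WT arrays on slide row 2, so genotype, sex and slide row cannot be told apart. Input arrays lay in slide column 2, IgG-RIP arrays in column 3 and AGO2-RIP arrays in column 4. Fraction and slide column thus cannot be told apart either. Of 8 macrophage markers, 7 were above background in WT input and 8 in KO input. The exception was Lyz2, the gene that carries Cre, which had a scaled log2 signal of -2.19 in WT input and 5.66 in KO input. The Dicer1 probe read 0.22 in WT input and -0.55 in KO input, and it checks nothing, since the labels do not say which exons are floxed. Of the markers of other blood and stromal cells, Cd4, Hba-a1 and Pf4 were above background on 6 arrays, Cd3e on 5, S100a8, S100a9, Tpsb2 and Col1a2 on 4, Flt3 on 3, Itga2b on 2 and Camp and Zbtb46 on 1. Those above background on 0 arrays included Ly6g, Mpo, Elane, Cd79a, Ms4a1, Cd3g, Cd8a, Cpa3, Col1a1 and Dcn. The log2 of the summed scaled signal of a marker list ran, over the 6 arrays, from 9.74 to 10.4 for macrophage markers, -0.55 to 0.76 for 7 neutrophil and progenitor markers, 1.15 to 3.1 for 4 T cell markers and -0.87 to -0.05 for 5 stromal markers. They ran from -2.23 to 1.41 for 3 dendritic cell, -2.04 to 0.85 for 3 mast cell and 4.18 to 6.60 for 3 megakaryocyte markers, and the part of other cells in the results was not tested. On every array 37.6% to 46.3% of 59305 spots were well above background and 0 were saturated.

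Passage through the division cycle is driven by cyclins, unstable proteins that switch on cyclin-dependent kinases. D-type cyclins with Cdk4 and Cdk6 release E2F factors from RB in G1, cyclin E with Cdk2 opens S phase, and cyclins A and B with Cdk1 drive the path through G2 into mitosis. Macrophages grown from marrow divide in response to colony-stimulating factor, which L929-conditioned medium supplies. MicroRNAs guide AGO2 to messenger RNAs through their seed, bases 2 to 8, and Ccnd1, Ccnd2, Ccnd3, Ccne1, Ccne2, Cdk4 and Cdk6 are known as targets of the let-7, miR-15/16, miR-34 and miR-26 families.

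The mature forms of these microRNAs are shown first, because AGO2 finds its messages through their seeds. The sequences are RefSeq's for GRCm38.p6, with the seed in capitals.
let-7a-5p: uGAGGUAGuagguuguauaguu
miR-16-5p: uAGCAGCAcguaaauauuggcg
miR-34a-5p: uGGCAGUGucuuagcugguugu
miR-26a-5p: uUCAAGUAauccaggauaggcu
The arrays hold only 60-base probes, so a target site could be looked for in the probes alone. The 7-base complement of the let-7 seed, CTACCTC, was in 1 of the 51 probes, a Cdk4 probe at base 861 of its transcript, and in 0.366% of all probes. The complement of the miR-15/16 seed, TGCTGCT, was in 1 of the 51 probes, the brighter Ccne1 probe at base 1874, and in 0.819% of all probes. The complements for miR-34, CACTGCC, and miR-26, TACTTGA, were in 0 of the 51 probes and in 0.449% and 0.431% of all probes. The stretches around both matches are shown with the match in capitals, from the strand printed in the array file.
Ccne1: attttgtaaggTGCTGCTatgtctatcaa
Cdk4: gagaggtatctCTACCTCgaggagccttt
The Ccne1 stretch is part of a probe whose annotated interval, chr7:38882937-38882960 (mm9, minus strand), spans only 24 of its 60 bases and so cannot hold the whole stretch. The Cdk4 stretch lies in the probe at chr10:126503162-126503221 (mm9, plus strand). A match is a run of letters and was not tested as a binding site, and a probe without one says nothing about the rest of its transcript. The signals of Ccne1 and Cdk4 are given below: relative to input, AGO2-RIP was highest for Ccne1 among the 37 genes in both genotypes, and at least 2-fold lower for Cdk4 in both.

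Read from the brightest probes, input RNA gave similar levels of the measured genes in both genotypes. Of 35 members measured (well above background on both arrays), 0 lay 2-fold or more above WT in KO input and 0 lay 2-fold or more below, where 1.02% and 1.72% of all 14662 measured genes were. Their median KO minus WT difference was -0.08 on the log2 scale, against -0.08 for all genes, and the median absolute difference was 0.21, against 0.26 for all genes. Spot noise had an SD of 0.15 to 0.19 between repeated spots of a probe on 1 array. That SD is not the same measure, since a difference holds the noise of both arrays. The 3 highest were Top2a at 0.50, Mcm2 at 0.45 and Rrm1 at 0.29. The 3 lowest were Rrm2 at -0.90, Ccne1 at -0.70 and Cdc45 at -0.69. A second Ccne1 probe, at base 741, gave -1.66, which is past 2-fold. Tyms, which makes thymidylate for DNA, was above background in WT input only, at least 2.06-fold over its bound in KO input, and for Ccne2 the same bound was 1.80-fold. In bulk RNA, fewer cells in cycle and less RNA per cell cannot be told apart.

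Both precipitates were compared with each other and with input. Over IgG-RIP in WT, 19 of 35 measured members were at least 2-fold higher in AGO2-RIP and 2 were at least 2-fold lower, where 20.3% and 22.2% of all genes were, with a median of 1.18 against -0.24 for all genes. In KO, 8 of 33 were higher and 4 lower, where 10.5% and 9.91% of all genes were, with a median of 0.18 against -0.19. Over input, members lay on both sides, as genes did across the array. In WT, 8 of 37 were higher and 7 lower, where 14.8% and 26.4% of all genes were. In KO, 4 of 35 were higher and 7 lower, where 14.6% and 26.4% were, so both member shares were below those of all genes. The members' medians over input were 0.05 in WT and -0.27 in KO, against -0.24 in both genotypes for all genes. The comparisons over IgG-RIP and over input share the AGO2-RIP arrays and are not independent of each other.

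**Figure D1:**
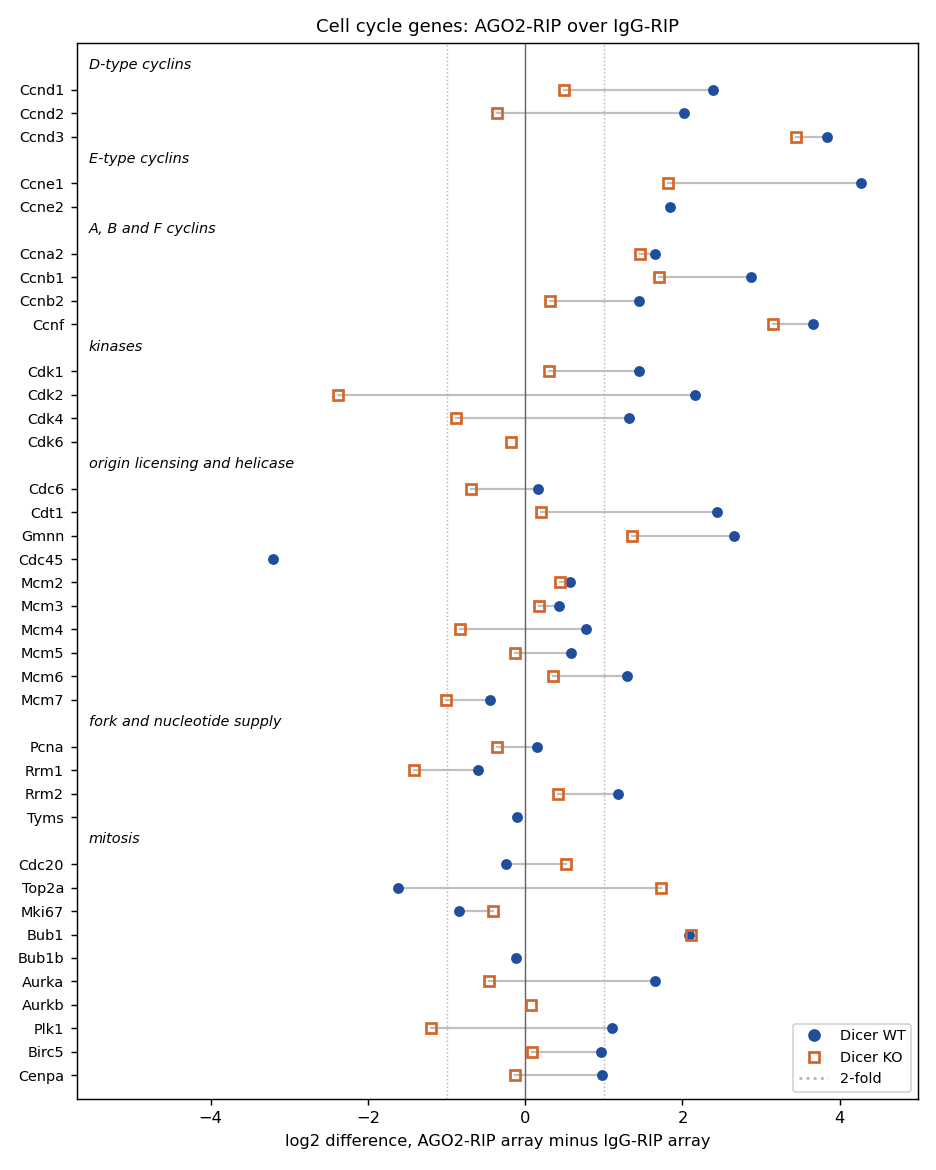
The horizontal axis is the log2 difference of the AGO2-RIP array minus the IgG-RIP array for each of the 37 genes, in groups by role, with WT as filled circles, KO as open squares and dotted lines at 2-fold. Cyclins stood to the right in WT, Ccnd3 and Ccnf were past 3 in both genotypes, and Cdk2 (2.16 in WT and -2.38 in KO) and Top2a (-1.61 and 1.73) changed side, while a missing symbol marks a gene below background on an array.

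**Figure D2:**
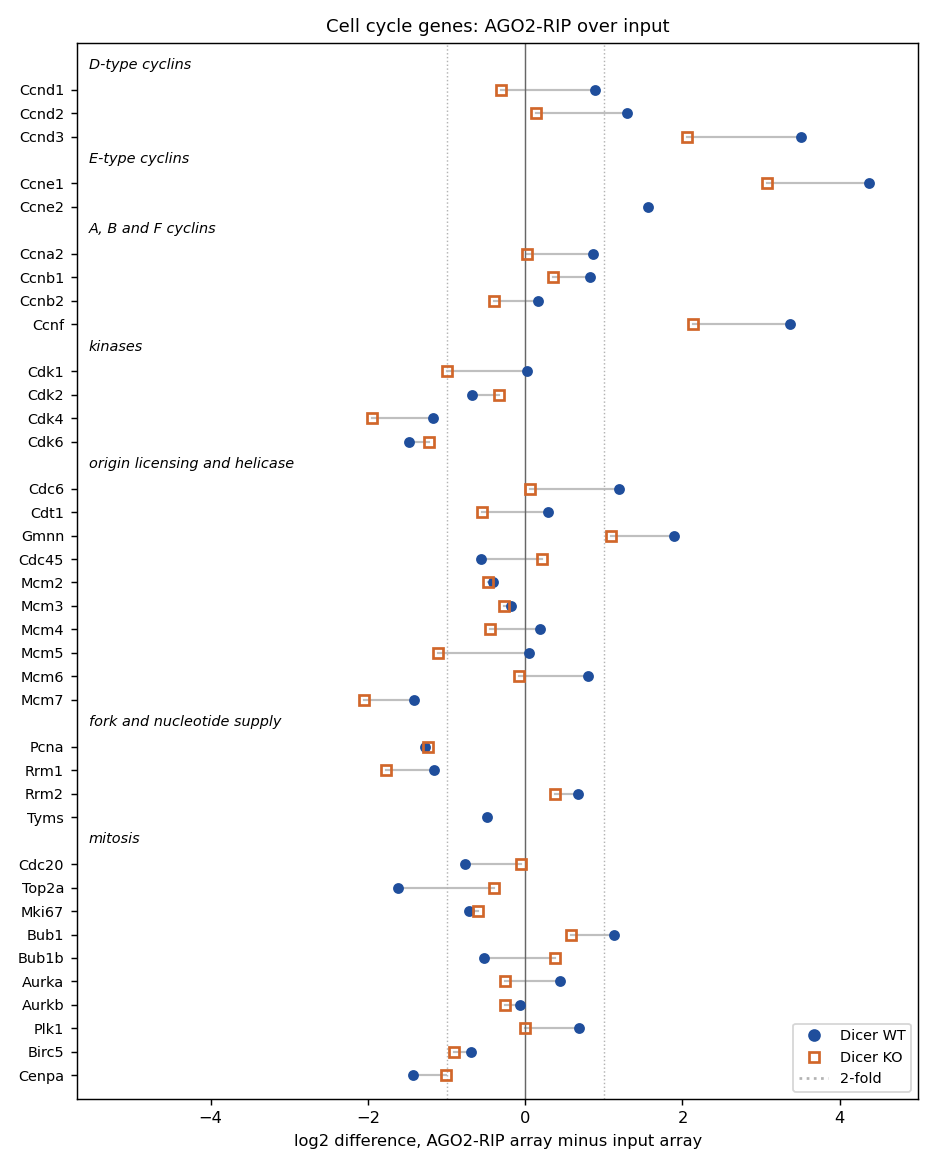
The horizontal axis is the log2 difference of the AGO2-RIP array minus the input array, with genes, symbols and dotted lines arranged by role in the same way. Ccne1, Ccnd3 and Ccnf were past 2 in both genotypes and Mcm7, Rrm1 and Pcna below -1 in both, and KO lay to the left of WT for 26 of the 35 genes measured in both, where 51.3% of all genes did.

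In all, 7 members were at least 2-fold over IgG-RIP in WT and in KO: Ccnd3, Ccne1, Ccna2, Ccnb1, Ccnf, Gmnn and Bub1, out of 31 members measured in both, and 0 lay 2-fold or more below it in both, where 6.32% and 2.63% of 14048 genes were. Over input in both genotypes, 4 of 35 members were at least 2-fold higher, namely Ccnd3, Ccne1, Ccnf and Gmnn, and 6 were at least 2-fold lower, namely Cdk4, Cdk6, Mcm7, Pcna, Rrm1 and Cenpa, where 8.05% and 20% of 13866 genes were. The same 4 genes, of 31 members above background on all 6 arrays, were past 2-fold over both references in both genotypes, where 2.1% of 12383 genes were. To test precipitation across genotypes, limma was used, where fraction and genotype were fitted on all 6 arrays with 2 residual degrees of freedom. A shift common to all arrays of a genotype is fitted. The disagreement between genotypes in the differences between fractions serves as the error. After Benjamini-Hochberg adjustment over 18884 genes, limma called 4 members higher and 0 lower in AGO2-RIP over IgG-RIP, where 2% and 0.0847% of genes were called. At an unadjusted limma p under 0.05 there were 12 higher and 1 lower, where 14% and 7.47% of genes were. Over input, limma called 4 members higher and 3 lower, where 7.47% and 11.7% of genes were called, and at an unadjusted p under 0.05 there were 4 higher and 6 lower, where 15.2% and 19.9% of genes were. Since the disagreement between genotypes is the error, messages with Dicer-dependent precipitation are the ones such a fit is least able to call.

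The D-type cyclins start the cycle with Cdk4 and Cdk6. AGO2-RIP stood above both input and IgG-RIP for Ccnd3 in both genotypes and for Ccnd1 and Ccnd2 in WT alone. The scaled log2 signal of Ccnd3 was 3.34 in WT input, 6.85 in WT AGO2-RIP, 3.01 in WT IgG-RIP, 3.46 in KO input, 5.52 in KO AGO2-RIP and 2.08 in KO IgG-RIP. Both AGO2-RIP arrays stood more than 2 log2 units above every input and IgG-RIP array of this gene. Its probe lies at chr17:47736579-47736638 (mm9, plus strand), at base 2059 of the transcript. AGO2-RIP exceeded IgG-RIP by 3.83 in WT and 3.44 in KO, and exceeded input by 3.50 and 2.06. A second Ccnd3 probe, at base 1608, gave 3.87 and 4.08 over IgG-RIP. In the limma fit Ccnd3 rose by 3.64 (SE 0.40) over IgG-RIP, with a Benjamini-Hochberg adjusted p of 0.0202, and by 2.78 (SE 0.40) over input, with an adjusted p of 0.00723.

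Ccnd1, a cyclin induced by growth factors, was at 4.81 in WT input, 5.70 in WT AGO2-RIP, 3.31 in WT IgG-RIP, 5.01 in KO input, 4.71 in KO AGO2-RIP and 4.22 in KO IgG-RIP. WT AGO2-RIP was its highest array and WT IgG-RIP its lowest, while in KO the order was input, AGO2-RIP and IgG-RIP from the highest to the lowest. The excess over IgG-RIP was 2.39 in WT and 0.49 in KO. Over input, Ccnd1 stood at 0.89 in WT and -0.30 in KO, short of 2-fold in both. Its IgG-RIP array was 0.91 higher in KO than in WT. Ccnd2, a D-type cyclin of hematopoietic cells among others, was at 0.36 in WT input, 1.65 in WT AGO2-RIP, -0.36 in WT IgG-RIP, 0.51 in KO input, 0.65 in KO AGO2-RIP and 1.01 in KO IgG-RIP. Its WT AGO2-RIP array was the highest of the 6, and in KO its IgG-RIP array was above its AGO2-RIP array. Over input, Ccnd2 stood at 1.29 in WT and 0.14 in KO. The median of the 3 genes over input in KO was 0.14, and it was -0.36 with arrays centred on their medians, so its sign depends on the scaling.

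The E-type cyclins activate Cdk2 at the start of S phase, and Ccne1 had the highest AGO2-RIP over input difference of all 37 members in both genotypes. Ccne1 was at 0.42 in WT input, 4.80 in WT AGO2-RIP, 0.53 in WT IgG-RIP, -0.28 in KO input, 2.79 in KO AGO2-RIP and 0.98 in KO IgG-RIP. WT AGO2-RIP stood far above the other arrays and KO AGO2-RIP came next, with input and IgG-RIP of both genotypes below 1. Over input the difference was 4.38 in WT and 3.07 in KO, and over IgG-RIP it was 4.27 and 1.81. The second Ccne1 probe, at base 741, gave 2.52 and 3.76 over input, which put KO above WT. The brighter probe put WT above KO. The signal of the probe at base 741 was 0.25 in WT input and -1.41 in KO input. In limma with Benjamini-Hochberg adjustment Ccne1 rose over input by 3.72 (SE 0.59, adjusted p = 0.00877), and over IgG-RIP the adjusted p was 0.0547. Ccne2, the second cyclin E gene, was above background on 4 of 6 arrays and measured 1.84 over IgG-RIP and 1.56 over input in WT. In KO, where its input and IgG-RIP were not well above background, AGO2-RIP was at least 1.45-fold over IgG-RIP and at least 1.78-fold over input.

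Cyclins of S phase, G2 and mitosis were all above IgG-RIP in both genotypes, with medians of 2.26 in WT and 1.58 in KO. Ccnf, an F-box cyclin that directs ubiquitination and binds no kinase, was at 0.94 in WT input, 4.31 in WT AGO2-RIP, 0.66 in WT IgG-RIP, 1.16 in KO input, 3.29 in KO AGO2-RIP and 0.14 in KO IgG-RIP. Its 2 AGO2-RIP arrays were the highest, and its other 4 arrays lay between 0.14 and 1.16. The probe is at chr17:24360204-24360263 (mm9, minus strand). AGO2-RIP was above IgG-RIP by 3.66 in WT and 3.15 in KO, and above input by 3.37 and 2.13. The limma fit had it up by 3.40 over IgG-RIP (SE 0.43) and 2.75 over input (SE 0.43), with Benjamini-Hochberg adjusted p of 0.0241 and 0.0084.

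Ccnb1, the cyclin that takes Cdk1 into mitosis, was at 2.49 in WT input, 3.32 in WT AGO2-RIP, 0.45 in WT IgG-RIP, 2.64 in KO input, 2.99 in KO AGO2-RIP and 1.29 in KO IgG-RIP. The IgG-RIP arrays were its lowest, and AGO2-RIP was the highest in both genotypes, within 2-fold of input. Over IgG-RIP it reached 2.87 in WT and 1.71 in KO, and limma called it up over IgG-RIP by 2.29 (SE 0.41, Benjamini-Hochberg adjusted p = 0.0443). The call rests on the probe at base 846, since its probes at bases 532 and 2228 gave -0.37 and -0.20 over IgG-RIP in KO, and with the median of a gene's probes the adjusted p was 0.273. Ccna2, the cyclin of S phase and G2, was at 2.78 in WT input, 3.65 in WT AGO2-RIP, 1.99 in WT IgG-RIP, 2.67 in KO input, 2.70 in KO AGO2-RIP and 1.23 in KO IgG-RIP. Its AGO2-RIP array was the highest in WT, near input in KO, and above IgG-RIP by 1.65 and 1.46. Ccnb2, the second B-type cyclin, stood 1.45 over IgG-RIP in WT and 0.32 in KO. Over input the median of the 4 genes in KO was 0.19, which turned to -0.31 with arrays centred on their medians.

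Of the 4 cyclin-dependent kinases, 0 were 2-fold higher over input in either genotype, and Cdk4 and Cdk6 were at least 2-fold lower in both. Cdk4, partner of the D-type cyclins, was at 4.91 in WT input, 3.73 in WT AGO2-RIP, 2.42 in WT IgG-RIP, 4.70 in KO input, 2.74 in KO AGO2-RIP and 3.62 in KO IgG-RIP. Input was highest in both genotypes, the AGO2-RIP minus input difference was -1.17 in WT and -1.95 in KO, and the lowest array was IgG-RIP in WT and AGO2-RIP in KO. Its probe with the let-7 seed match gave -1.13 and -1.73 over input. Cdk6 was at 0.20 in WT input, -1.28 in WT AGO2-RIP, -3.69 in WT IgG-RIP, 0.47 in KO input, -0.75 in KO AGO2-RIP and -0.58 in KO IgG-RIP, and its WT IgG-RIP array was not well above background. In WT its AGO2-RIP was at least 1.68-fold over IgG-RIP and its input at least 4.68-fold over IgG-RIP.

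Cdk1, the kinase of mitotic entry, was at 2.79 in WT input, 2.81 in WT AGO2-RIP, 1.36 in WT IgG-RIP, 2.86 in KO input, 1.87 in KO AGO2-RIP and 1.57 in KO IgG-RIP. WT AGO2-RIP matched WT input, KO AGO2-RIP lay below KO input, and IgG-RIP was lowest in both. Over IgG-RIP it measured 1.44 in WT and 0.30 in KO from the brightest probe, and -0.47 and -0.38 from a dim probe at base 2670. Cdk2, the S phase kinase, was at 1.35 in WT input, 0.67 in WT AGO2-RIP, -1.49 in WT IgG-RIP, 1.08 in KO input, 0.75 in KO AGO2-RIP and 3.13 in KO IgG-RIP. Input and AGO2-RIP were within 2-fold of each other in both genotypes, and the IgG-RIP array was the lowest in WT and the highest in KO. Its AGO2-RIP minus IgG-RIP difference of 2.16 in WT and -2.38 in KO therefore rests on the IgG-RIP arrays. Cdk2 has 1 probe, so no second reading of its IgG-RIP signal could be made.

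Origin licensing loads the Mcm2 to Mcm7 helicase with Cdc6 and Cdt1, and geminin (Gmnn) blocks Cdt1 after origins have fired. Gmnn, the inhibitor, was at 2.96 in WT input, 4.86 in WT AGO2-RIP, 2.21 in WT IgG-RIP, 2.83 in KO input, 3.92 in KO AGO2-RIP and 2.57 in KO IgG-RIP. AGO2-RIP was its highest array in each genotype, above IgG-RIP by 2.65 in WT and 1.36 in KO and above input by 1.90 and 1.09. limma with Benjamini-Hochberg adjustment called it up over input by 1.49 (SE 0.40, adjusted p = 0.0406), and over IgG-RIP its adjusted p was 0.0573. The call over input was lost with median centring (adjusted p = 0.143), the median of its probes (0.644) and no intensity trend (0.0934). A second Gmnn probe, annotated on the opposite strand, was above background on 0 arrays, and averaging it in turned the KO difference over IgG-RIP to -0.12. Cdt1, the loader that Gmnn blocks, stood 2.44 over IgG-RIP in WT and 0.21 in KO, with 0.29 and -0.55 over input.

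Cdc6, the other loader, was at 1.97 in WT input, 3.17 in WT AGO2-RIP, 3.01 in WT IgG-RIP, 1.60 in KO input, 1.66 in KO AGO2-RIP and 2.35 in KO IgG-RIP. AGO2-RIP and IgG-RIP were both above input in WT, by 1.2 and 1.04, and IgG-RIP was the highest array in KO. Cdc45, which joins the helicase when it fires, was at -1.18 in WT input, -1.74 in WT AGO2-RIP, 1.46 in WT IgG-RIP, -1.87 in KO input, -1.65 in KO AGO2-RIP and -2.51 in KO IgG-RIP. It was low on every array except WT IgG-RIP, so its difference of -3.21 over IgG-RIP in WT, the lowest of all members, rests on that array. In KO, where IgG-RIP was below background, AGO2-RIP was at least 1.41-fold over IgG-RIP.

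The 6 helicase subunits differed from each other over input. Mcm7 was at 4.60 in WT input, 3.19 in WT AGO2-RIP, 3.64 in WT IgG-RIP, 4.73 in KO input, 2.68 in KO AGO2-RIP and 3.69 in KO IgG-RIP. Input was highest and AGO2-RIP lowest in each genotype, and the probe lies at chr5:138605925-138605984 (mm9, minus strand). AGO2-RIP minus input was -1.42 in WT and -2.05 in KO, and in limma with Benjamini-Hochberg adjustment Mcm7 fell by 1.73 on the log2 scale (SE 0.33, adjusted p = 0.0142). Mcm6 gave 0.80 in WT and -0.08 in KO, Mcm4 gave 0.19 and -0.44, and Mcm3 gave -0.18 and -0.27. Mcm5 read 0.05 and -1.10. Mcm2 was at 0.56 in WT input, 0.14 in WT AGO2-RIP, -0.43 in WT IgG-RIP, 1.00 in KO input, 0.53 in KO AGO2-RIP and 0.08 in KO IgG-RIP. Its levels lay close together, with AGO2-RIP below input and above IgG-RIP in both genotypes. None of Mcm2 to Mcm6 was called by limma over input or over IgG-RIP, where their lowest Benjamini-Hochberg adjusted p were 0.405 and 0.208. The median of all 10 licensing genes over input was 0.12 in WT and -0.36 in KO, and turned to -0.16 in WT with median centring and 0.09 in KO with quantile normalization.

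Windows of the Mcm6 and Ccnf promoters are shown as examples of the E2F-type and mitotic motifs known from cell cycle genes. For Mcm6 and Ccnf, KO minus WT input was -0.03 and 0.22, and AGO2-RIP over input in WT was 0.80 and 3.37. A link between the motifs and these values was not tested. RefSeq's table for GRCm38.p6 held promoters, 250 bases before to 50 after the start, for 30 of the 37 members, and none for Ccnd1, Ccnd2, Ccne2, Ccna2, Gmnn, Mcm4 or Aurkb. Motifs were searched on both strands. In the Mcm6 window the E2F-type octamers TTTGGCGC and TTTCGCGC are in capitals, the second on the opposite strand and overlapping the first, and in the Ccnf window the CCAAT box (CCAAT) and the cell cycle homology region (TTTGAA) are in capitals.
Mcm6 (chr1:128359730-128359830, minus strand): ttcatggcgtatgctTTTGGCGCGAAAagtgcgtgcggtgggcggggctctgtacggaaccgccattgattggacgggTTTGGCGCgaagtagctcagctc
Ccnf (chr17:24251410-24251571, minus strand): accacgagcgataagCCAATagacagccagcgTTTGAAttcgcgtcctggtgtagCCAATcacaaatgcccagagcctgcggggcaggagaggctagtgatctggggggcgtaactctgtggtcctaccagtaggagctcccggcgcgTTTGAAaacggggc
TTTGGCGC was in the promoters of Cdt1, Mcm3, Mcm5 and Mcm6 and in 0.514% of 32851 promoters, and TTTCGCGC in those of Cdk1, Mcm5, Mcm6 and Mcm7 and in 0.323%. At least 1 of these octamers was thus in 6 of 30 members, 5 of them licensing genes, and in 0.813% of all promoters. TTTGAA was in 12 of 30 members, 7 of them in the mitosis group, and in 17.9% of all promoters, and CCAAT in 23 of 30 and in 37.4%. A match is a run of letters and was not tested as a site.

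Of the 4 replication fork and nucleotide supply genes, Pcna and Rrm1 were below input in AGO2-RIP and Rrm2 was above it. Pcna, the sliding clamp of DNA polymerase, was at 5.43 in WT input, 4.15 in WT AGO2-RIP, 4.00 in WT IgG-RIP, 5.27 in KO input, 4.04 in KO AGO2-RIP and 4.39 in KO IgG-RIP. Input stood above both precipitates in each genotype, and AGO2-RIP and IgG-RIP were close to each other. Pcna fell in AGO2-RIP relative to input by 1.26 on the log2 scale in limma (SE 0.30, Benjamini-Hochberg adjusted p = 0.0304), and in IgG-RIP by 1.15 (adjusted p = 0.0258). Rrm1, the large subunit of ribonucleotide reductase, was at 3.78 in WT input, 2.62 in WT AGO2-RIP, 3.23 in WT IgG-RIP, 4.07 in KO input, 2.30 in KO AGO2-RIP and 3.71 in KO IgG-RIP. AGO2-RIP was its lowest array in each genotype, with differences from input of -1.16 and -1.77 and from IgG-RIP of -0.60 and -1.41. It fell by 1.46 over input in limma (SE 0.35, Benjamini-Hochberg adjusted p = 0.029).

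Rrm2, the small subunit of the same enzyme, was at 4.44 in WT input, 5.12 in WT AGO2-RIP, 3.93 in WT IgG-RIP, 3.54 in KO input, 3.92 in KO AGO2-RIP and 3.50 in KO IgG-RIP. AGO2-RIP was highest in each genotype, by 0.68 over input in WT and 0.38 in KO, and the KO value turned to -0.13 with median centring. Every KO array of Rrm2 was below its WT counterpart, with KO minus WT differences of -0.90 for input, -1.20 for AGO2-RIP and -0.44 for IgG-RIP. Tyms was above background on 4 of 6 arrays and gave -0.10 over IgG-RIP and -0.48 over input in WT, and in KO its AGO2-RIP was at least 1.22-fold over IgG-RIP and at least 1.49-fold over input, with those reference arrays below background.

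Mitotic genes were spread on both sides, with medians over input of -0.60 in WT and -0.26 in KO, the latter turning to 0.15 with quantile normalization. Bub1, a spindle checkpoint kinase, was at 1.82 in WT input, 2.95 in WT AGO2-RIP, 0.87 in WT IgG-RIP, 1.74 in KO input, 2.32 in KO AGO2-RIP and 0.21 in KO IgG-RIP. The order was AGO2-RIP, input and IgG-RIP in both genotypes. Its excess over IgG-RIP was 2.08 in WT and 2.11 in KO, and in limma with Benjamini-Hochberg adjustment it rose by 2.09 (SE 0.38, adjusted p = 0.0476). Bub1b, its partner in the checkpoint, was at -0.11 in WT input, -0.64 in WT AGO2-RIP, -0.52 in WT IgG-RIP, 0.11 in KO input, 0.49 in KO AGO2-RIP and -2.30 in KO IgG-RIP, with KO IgG-RIP below background. In KO its AGO2-RIP was at least 6.20-fold over IgG-RIP, while in WT the difference was -0.11. Over input it measured -0.52 in WT and 0.38 in KO.

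Top2a, the topoisomerase that untangles sister chromatids, was at 0.30 in WT input, -1.31 in WT AGO2-RIP, 0.30 in WT IgG-RIP, 0.79 in KO input, 0.39 in KO AGO2-RIP and -1.34 in KO IgG-RIP. Its precipitates were reversed between genotypes, with AGO2-RIP low in WT and IgG-RIP low in KO, and it gave -1.61 over IgG-RIP in WT and 1.73 in KO. Plk1, a mitotic kinase, was at 1.60 in WT input, 2.28 in WT AGO2-RIP, 1.18 in WT IgG-RIP, 1.37 in KO input, 1.37 in KO AGO2-RIP and 2.57 in KO IgG-RIP. KO IgG-RIP was its highest array, and the difference over IgG-RIP was 1.10 in WT and -1.19 in KO. Mki67, the proliferation antigen that coats mitotic chromosomes, was at 4.08 in WT input, 3.36 in WT AGO2-RIP, 4.20 in WT IgG-RIP, 4.26 in KO input, 3.65 in KO AGO2-RIP and 4.06 in KO IgG-RIP. All 6 arrays were within a narrow band with AGO2-RIP the lowest in each genotype, and a second probe at base 9668 gave -0.67 and -0.43 over input, beside -0.72 and -0.60 for the first.

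Cdc20, which activates the anaphase-promoting complex, was at 3.31 in WT input, 2.54 in WT AGO2-RIP, 2.78 in WT IgG-RIP, 3.15 in KO input, 3.09 in KO AGO2-RIP and 2.56 in KO IgG-RIP. WT AGO2-RIP was its lowest array, and KO AGO2-RIP was near KO input. Cenpa, the histone variant of centromeres, was at 3.76 in WT input, 2.33 in WT AGO2-RIP, 1.35 in WT IgG-RIP, 3.33 in KO input, 2.32 in KO AGO2-RIP and 2.45 in KO IgG-RIP. Input was highest in both genotypes, and AGO2-RIP minus input was -1.43 in WT and -1.01 in KO. Birc5, a subunit of the chromosomal passenger complex, gave -0.68 and -0.90 over input from its brightest probe. Its probes at bases 269 and 415 were past 2-fold lower, at -1.35 and -1.61 in WT and -1.67 and -1.71 in KO. Aurka, the spindle pole kinase, gave 1.64 over IgG-RIP in WT and -0.46 in KO. Aurkb, the passenger complex kinase, was below background in WT IgG-RIP, where AGO2-RIP was at least 3.61-fold higher, and measured 0.07 in KO.

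**Figure D3:**
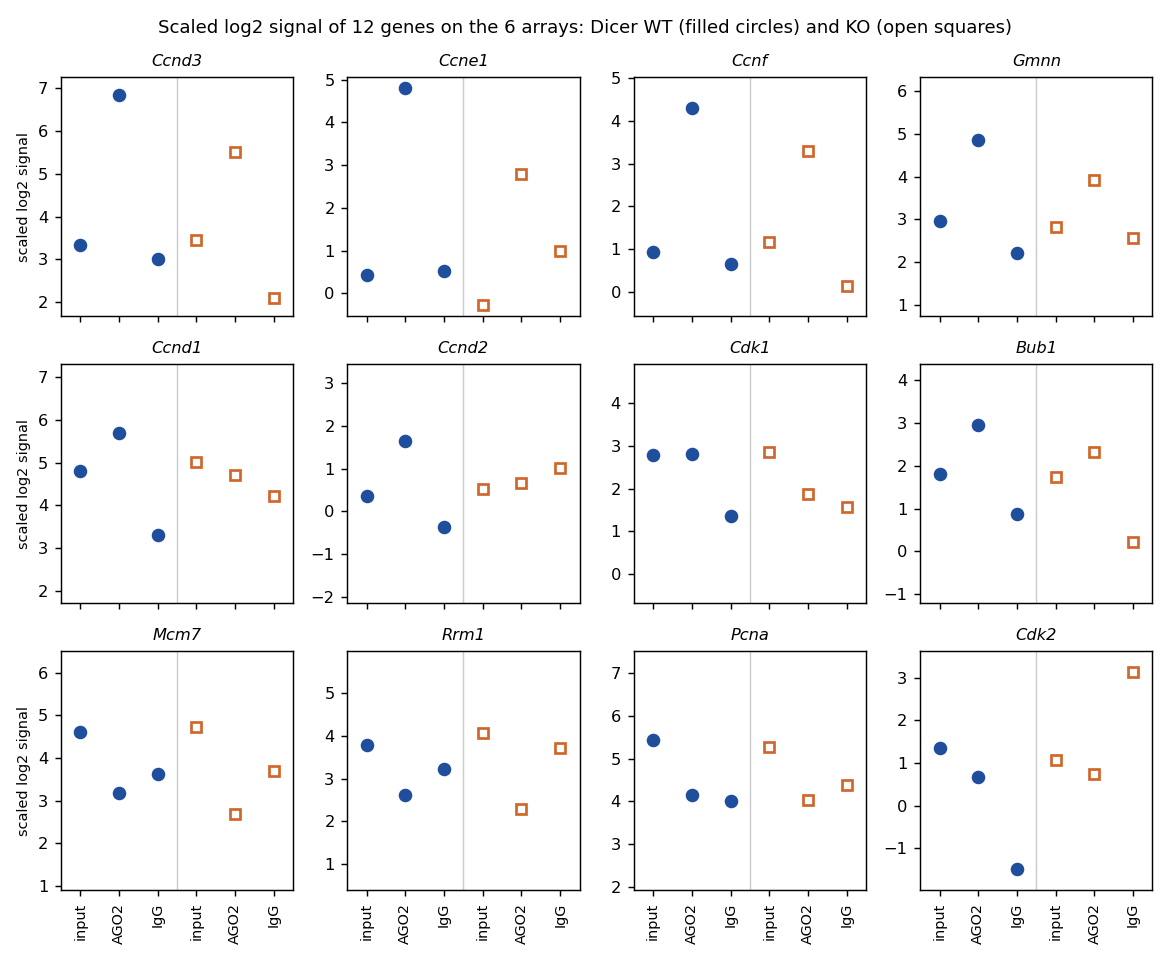
Each panel gives the scaled log2 signal of a gene on the 6 arrays, with WT as filled circles, KO as open squares and all vertical axes of equal span but different centre. Ccnd3, Ccne1, Ccnf and Gmnn peaked in AGO2-RIP in both genotypes, Ccnd1 and Ccnd2 in WT alone, Mcm7 and Rrm1 were lowest in AGO2-RIP, and Cdk2 differed between genotypes on the IgG-RIP array (-1.49 in WT and 3.13 in KO).

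The question of Dicer dependence sets the WT difference against the KO difference. Over IgG-RIP, the WT minus KO value was at least 2-fold higher for 14 of 31 members and lower for 1, where 20.2% and 16.5% of all genes were, and the median was 0.88 against 0.03. Over input, 8 of 35 were higher and 1 was lower, where 11.6% and 6.97% of all genes were, with a median of 0.61 against 0.02. Ccnd1, Ccnd2, Ccne1 and Cdk1 passed 2-fold over both references, which is 4 of 31 members, where 6.76% of 12383 genes did. Their WT minus KO values over IgG-RIP were 1.90, 2.37, 2.46 and 1.14, and over input 1.19, 1.15, 1.31 and 1.01. Ccnd3 (1.44), Ccnf (1.24), Mcm5 (1.16) and Cdc6 (1.14) passed it over input alone, and Top2a was the gene in the other direction over both references, at -3.35 and -1.21. Of the 7 members known as microRNA targets, 6 had a WT minus KO value over input. It was at least 2-fold for 4 of the 6, namely the 3 D-type cyclins and Ccne1, where 11.6% of all genes were. Cdk4 was at 0.78 and Cdk6 at -0.25. Over IgG-RIP the set differed, with Ccnd3 at 0.40, short of 2-fold, and Cdk4 at 2.20, past it. These are differences of single arrays and were not tested, and for Ccne1 the second probe put KO above WT, with WT minus KO values of -0.72 over IgG-RIP and -1.25 over input. For Cdk1 the probe at base 2670 gave -0.09 and 0.32, while that at base 1111 gave 1.14 and 1.15. The probe at base 1111 overlaps the brightest one, at base 1130, so it is not a separate reading. Across the alternative settings only Ccnd1 of these 4 genes stayed past 2-fold over both references, and the lowest values over input were 1.06 for Ccnd1, 0.84 for Ccnd2, 0.03 for Ccne1 and 0.85 for Cdk1.

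Set out by fraction, the members' median absolute KO minus WT difference was 0.21 in input, 0.85 on the AGO2-RIP arrays and 0.52 on the IgG-RIP arrays, where it was 0.26, 0.48 and 0.45 for all genes. On the AGO2-RIP arrays 28 of 37 members were lower in KO than in WT, where 51.7% of all genes were, with a median of -0.66 against -0.03 for all genes, and 2 lay at least 2-fold above and 7 at least 2-fold below, where 6.9% and 11% of all genes were. The 7 were Ccne1 at -2.00, Ccne2 at -1.58, Cdc6 at -1.51, Ccnd3 at -1.32, Rrm2 at -1.20, Ccnf at -1.02 and Ccnd2 at -1.0, and the 2 were Top2a at 1.71 and Bub1b at 1.12. All 9 cyclin genes were among the 28. Across the alternative settings 26 to 31 members were lower and the median ran from -0.85 to -0.40. On the IgG-RIP arrays the members went the other way, with 8 of 31 at least 2-fold higher in KO and 1 lower, where 11% and 8.94% of all genes were, and a median of 0.36 against -0.01. The 8 were Cdk2 at 4.62, Aurka at 1.45, Plk1 at 1.39, Ccnd2 at 1.37, Cdt1 at 1.27, Mcm4 at 1.22, Cdk4 at 1.21 and Cenpa at 1.09. The larger count over IgG-RIP than over input thus comes with IgG-RIP signals that also differed between genotypes, and their part in it was not tested. The comparison by fraction was added after the values were seen.

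**Figure D4:**
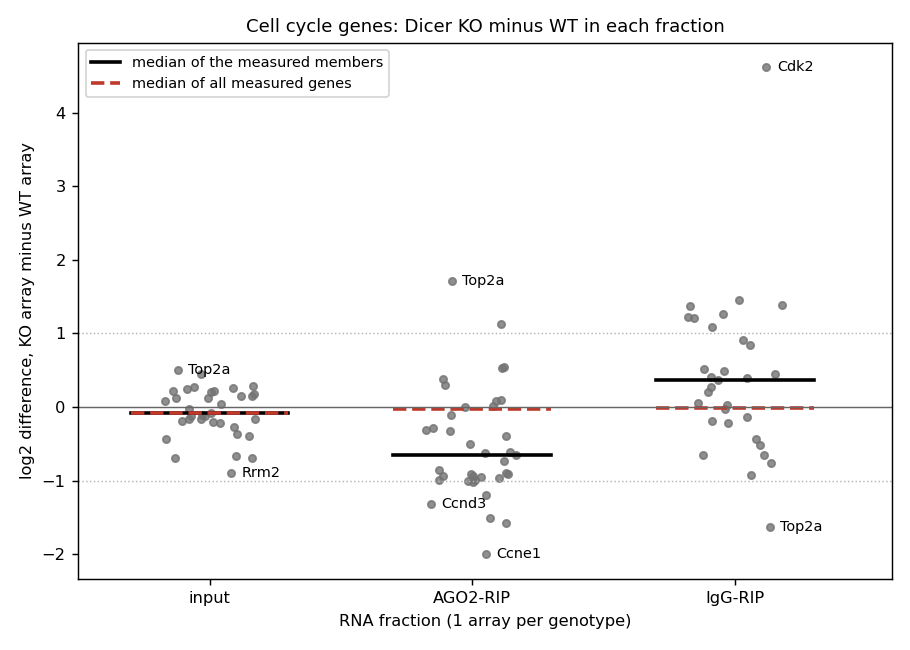
Each grey point is a member's log2 difference of the KO array minus the WT array for each of the 3 fractions, with the members' median as a black line, the median of all measured genes as a dashed red line and dotted lines at 2-fold. In input the 35 measured members lay within 2-fold with a median of -0.08, on the AGO2-RIP arrays the median was -0.66 and on the IgG-RIP arrays 0.36, with Cdk2 at 4.62 and Top2a at -1.64.

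Most members were lower in IgG-RIP than in input, 30 of 35 in WT and 26 of 33 in KO, where 60.9% and 57.6% of all genes were. In WT, 2 of 35 members were at least 2-fold higher in IgG-RIP than in input and 11 lower, where 18.6% and 37% of all genes were, and in KO 3 of 33 were higher and 10 lower, where 17.5% and 28.8% were. Medians were -0.62 in WT and -0.76 in KO, against -0.45 and -0.26 for all genes. The 3 lowest in WT were Cdk2 at -2.85, Cdk4 at -2.49 and Cenpa at -2.40, and in KO Top2a at -2.13, Bub1 at -1.52 and Ccna2 at -1.43. limma with Benjamini-Hochberg adjustment called 0 members higher and 9 lower, where 15% and 21.2% of genes were called. They were Ccnb1, Birc5, Pcna, Cenpa, Cdk4, Cdk1, Bub1, Cdk6 and Mcm7, with fitted log2 differences from -2.47 for Cdk6, whose WT IgG-RIP array was below background, to -1.0 for Mcm7. None of the 37 had an unadjusted limma p under 0.05 in the upward direction, and 13 did downward, where 20.4% and 28.2% of genes did. Without the intensity trend, and with quantile normalization, 1 of the 9 was called, Ccnb1. In KO its brightest probe gave -1.35, but those at bases 532 and 2228 gave 0.34 and 0.41. In WT these probes gave -2.04, -2.39 and -0.94 in the same order. The highest limma adjusted p of Ccnb1 across the alternative settings was 0.338. The Cdk1 probe at base 2670 gave 1.39 in WT and 0.99 in KO. Its brightest probe gave -1.42 and -1.29, and the probe at base 1111, which overlaps the brightest, gave -1.41 and -1.42. Of the 9 genes called lower in IgG-RIP, Pcna and Mcm7 were also called lower in AGO2-RIP than in input, whereas Ccnb1 and Bub1 were called higher in AGO2-RIP relative to IgG-RIP.

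Other genes of the pathway, 81 on 5 further lists, are summarised by list, and among all genes 20.3% in WT and 10.5% in KO were at least 2-fold over IgG-RIP. CDK inhibitors, which brake the kinases, had 3 of 5 measured genes at least 2-fold over IgG-RIP in WT and 2 of 5 in KO, with Cdkn1b (p27) at 3.78 and 2.23, Cdkn1a (p21) at 3.34 and 1.32, and the lowest in WT being Cdkn2b at -0.26 and Cdkn2d at 0.36. Among 12 phosphatases, checkpoint kinases and ubiquitin adaptors, 7 of 10 measured genes were past 2-fold over IgG-RIP in WT and 1 was lower, led by Skp2 at 4.82 and Fbxo5 at 3.97, with Chek1 at -1.52 and Pkmyt1 at 0.18 lowest. Over input the highest of that list were Wee1, the kinase that restrains Cdk1, at 4.29 in WT and 3.13 in KO, and Skp2, which marks p27 for degradation, at 3.91 and 1.90. In the RB and E2F axis 7 of 14 measured genes were past 2-fold over IgG-RIP in WT and 1 of 13 in KO, with E2f6 at 3.34 and E2f3 at 2.38 the highest in WT and E2f1 at -0.97 and Rbl2 at -0.57 the lowest.

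Of the replication genes outside the 37, 18 of 23 measured lay below input in each genotype, with 0 at least 2-fold higher and 9 lower in WT, and 0 and 8 in KO. Among all genes 58.2% in WT and 58.3% in KO lay below input, and 26.4% in each were at least 2-fold lower. The GINS subunits of the helicase led, with Gins3 at -3.49 in WT and -3.44 in KO, Gins4 at -2.95 and -2.57, and Gins2 at -2.78 and -3.29, while Gins1 at 0.97 and Rfc1 at 0.68 were the highest of the list in WT. These 3 low GINS genes were also low in IgG-RIP, at -3.34, -2.92 and -3.10 in WT. Other mitosis genes had 1 of 18 higher and 3 lower over input in WT and 0 and 5 in KO, with Anln at 1.77 and Nusap1 at 0.75 highest and Bub3 at -2.17 and Nuf2 at -1.18 lowest in WT. Over IgG-RIP, limma with Benjamini-Hochberg adjustment called 6 of 78 tested genes of these lists higher and 0 lower, where 2% and 0.0847% of all genes were called. The 6 were Fbxo5, Skp2, Wee1, Cdkn1b, Cdc25a and E2f3. At an unadjusted limma p under 0.05 there were 23 higher and 2 lower, where 14% and 7.47% of all genes were. Over input limma called, after adjustment, 7 higher (Wee1, Cdkn1b, Skp2, Cdkn2b, E2f3, Cdc25a and E2f5) and 6 lower (Gins2, Gins3, Gins4, Bub3, Rpa1 and Rfc5), where 7.47% and 11.7% of all genes were called. Against input, IgG-RIP was called higher for 1 gene of these lists, Cdkn2b, and lower for 18, among them 10 replication genes, where 15% and 21.2% of all genes were called. Of the genes named, E2f5 was above background on only 2 arrays and Cdkn2b on 4, and neither input array was among them. Their scaled log2 signals were -3.90 in WT input and -2.93 in KO input for E2f5, and -2.98 and -2.97 for Cdkn2b. Calls of these genes against input thus rest on reference signals at background.

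The limma calls over IgG-RIP depend on how the variance is modelled and on the scaling: without an intensity trend, or with arrays centred on their medians, 0 of the 37 genes were called, and the adjusted p of Ccnd3 was then 0.0786 and 0.0520. Over input, Ccnd3, Ccne1 and Ccnf were called in 8 of 8 alternative settings with adjusted p no higher than 0.0392, and Mcm7, Rrm1 and Pcna in 6 of 8, without the trend and with quantile normalization being the exceptions. Agreement between probes of a gene was weakest for KO over IgG-RIP, where 5 of 12 further probes had the sign of the brightest, against 11 of 12 in WT, and over input 12 of 12 in WT and 10 of 12 in KO. These probes are not all separate readings. The probes at base 1111 of Cdk1 and base 2785 of Mcm3 overlap the brightest, and Birc5, Ccnb1, Cdk1 and Cdk4 are counted more than once. The scaling also moved all genes: the all-gene median of AGO2-RIP minus input went from -0.24 in both genotypes to -0.52 in WT and -0.74 in KO with median centring, and the share of 2-fold genes that were higher went from 36.0% to 23.5% in WT and from 35.6% to 16.0% in KO. For AGO2-RIP minus IgG-RIP that share was 47.8% in WT, 68.3% after normexp background correction and 66.4% after median centring, and in KO 51.3% and 67.4% after normexp. For IgG-RIP minus input it went from 33.5% to 17.8% in WT and from 37.8% to 19.1% in KO with median centring, and to 46% and 50.2% with quantile normalization. Quantile normalization also gave 46.2% in WT and 47% in KO for AGO2-RIP minus input. For WT minus KO it went from 55.1% to 74.5% over IgG-RIP with median centring, and from 62.5% to 80.8% over input, where normexp gave 77.3%. Taken relative to the all-gene median, the members' median was 1.43 higher over IgG-RIP in WT and 0.37 higher in KO, and 0.29 higher and -0.04 apart over input.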

How the data were processed

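RNA of 6 samples was hybridised to 1-colour Agilent arrays, 1 array per group. Per the labels' protocols, precipitated RNA was pre-amplified with the Ovation PicoSL WTA System, and whether input RNA was treated likewise is not stated there. Then 500 ng of cDNA was cut with AluI and RsaI and labelled with Cy3 by random priming, and 11 of the 37 genes' probes hold a site of these enzymes. The deposited files hold scanner intensities from Feature Extraction 10.7.3.1, per the file headers, with background already subtracted by the authors' scanner software, on mm9 coordinates. Processed intensities were put on the log2 scale and each array's 75th percentile was subtracted, spots of a probe were averaged and outlier spots and control spots were left out. A gene was read from its probe with the highest mean signal, and a difference was counted as measured where the gene was well above background on the arrays compared. A gene below background on 1 side is given as a bound, the brighter signal over the higher of that array's lowest signal well above background and the dim probe's own.

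Fraction and genotype were fitted by limma 3.58.1 (lmFit and eBayes with an intensity trend, R 4.3.3) to the 18884 genes that exceeded background on 2 or more arrays, with Benjamini-Hochberg adjustment over all of them and a threshold of 0.05. Nothing says that the samples came from separate cultures or animals, so p-values measure only the spread between these arrays, which may be technical. The number of arrays limits the precision. Alternatives were normexp background correction (offset 50), median centring, quantile normalization, other filters on dim genes, the median of a gene's probes, outlier spots kept and no intensity trend. All 6 values are given for the 3 highest and 3 lowest members of each comparison and for Ccnd1, Ccne1, Cdk1, Pcna and Mki67, and also for Gmnn and Ccnb1, which were added after their values were seen. Of the other lists, the 2 highest and 2 lowest genes of a comparison are named, with the genes limma called. The members and lists were chosen with earlier results of these data known.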

Additional observations from a re-analysis of the deposited data

Results flagged for a closer look

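For 3 genes a difference reached 2-fold in WT and, in the opposite direction, in KO. Other members had opposite signs with at least 1 side under 2-fold. They compare single arrays and were not tested. For Cdk2, AGO2-RIP minus IgG-RIP was 2.16 in WT and -2.38 in KO, a WT minus KO difference of 4.54, and IgG-RIP minus input was -2.85 and 2.05, a difference of -4.90. For Top2a, AGO2-RIP minus IgG-RIP was -1.61 in WT and 1.73 in KO, a difference of -3.35. For Plk1 it was 1.10 and -1.19, a difference of 2.30.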

How the results depend on the processing

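Each group has 1 array, so there are no replicates of a group to pair, and leaving out an array removes its group. The limma fit itself compares the fractions within each genotype. Of 222 counts under the alternatives, 163 stayed within 1.5 times the value reported and 59 did not. The cause was not tested for any of them. Keeping outlier spots moved 0 counts.

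With median centring, members at least 2-fold lower went from 7 to 11 for AGO2-RIP minus input in KO. For IgG-RIP minus input, higher and lower members went from 2 to 1 and 11 to 24 in WT, and from 3 to 1 and 10 to 19 in KO. WT minus KO over input went from 8 to 13 higher and 1 to 0 lower. Limma calls over IgG-RIP went from 378 to 2 genes higher and 16 to 0 lower, and from 4 to 0 members. Genes called higher went from 1411 to 822 over input and from 2836 to 1847 for IgG-RIP over input, where members called lower went from 9 to 14.

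With quantile normalization, AGO2-RIP minus IgG-RIP in WT went from 2 to 4 lower. AGO2-RIP minus input went from 8 to 13 higher and 7 to 3 lower in WT, and from 7 to 4 lower in KO. IgG-RIP minus input went from 11 to 5 lower in WT, and from 3 to 5 higher and 10 to 5 lower in KO. WT minus KO over IgG-RIP went from 14 to 9 higher and 1 to 2 lower. Limma calls went from 4 to 2 members over IgG-RIP. Over input they went from 2203 to 1076 genes lower and 3 to 0 members lower. For IgG-RIP over input they went from 0 to 1 member higher (Cdc6), from 3998 to 2112 genes lower and from 9 to 1 member lower.

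With normexp, members lower went from 2 to 1 in WT and 4 to 2 in KO over IgG-RIP, and from 7 to 3 and 7 to 4 over input. Members higher in IgG-RIP than input went from 2 to 1 in WT and 3 to 1 in KO, WT minus KO over input went from 1 to 0 lower, and genes called lower over IgG-RIP from 16 to 41.

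Without the intensity trend, limma calls over IgG-RIP went from 378 to 0 higher, 16 to 0 lower and 4 to 0 members. Over input they went from 1411 to 844 higher, 2203 to 1091 lower and 3 to 0 members lower, and members lower in IgG-RIP than input from 9 to 1.

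With no filter on dim genes, lower members went from 0 to 2 for KO minus WT input, from 1 to 5 for WT minus KO over IgG-RIP and from 1 to 2 over input, and calls over IgG-RIP to 835 genes higher, 144 lower and 7 members. With genes above background on all 6 arrays, members went from 2 to 1 lower over IgG-RIP in WT and from 2 to 1 higher in IgG-RIP over input in WT. Calls over IgG-RIP were then 640 higher, 54 lower and 7 members, and 1817 genes were higher in IgG-RIP than input.

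With the median of a gene's probes, 1 called difference turned: Gmnn over IgG-RIP in KO went from 1.36 to -0.12, where its other probe was above background on 0 arrays. Lower members went from 0 to 1 for KO minus WT input, higher members from 2 to 1 for IgG-RIP minus input in WT and from 8 to 5 for WT minus KO over input, and members called lower in IgG-RIP from 9 to 5.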
